A study of Mus musculus with 5 samples.

Results

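The mammalian circadian clock is a loop of transcription factors that runs in nearly every cell. CLOCK or NPAS2 pairs with BMAL1, the product of Arntl, and switches on the Per and Cry genes, whose proteins return to the nucleus and block that pair. The same pair also drives Nr1d1, Nr1d2 and Dbp, and the NR1D proteins repress Arntl, so that in most mouse tissues Arntl, Clock and Npas2 peak near the end of the night and the Nr1d, Dbp and Per genes later, with Cry1 lagging behind the Per genes. In the lung, fibroblasts and other cells keep such a rhythm, and Per1 is also a direct target of glucocorticoids.

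Levels of 10 clock genes, chosen by symbol among the 23478 genes of the count table, were compared between genotypes: the activators Arntl, Clock and Npas2, the repressors Per1, Per2, Per3 and Cry1, the nuclear receptors Nr1d1 and Nr1d2, and the output factor Dbp. All 10 were in the table and all passed the filter on low counts, in which 15298 genes were tested. For the question of opposite shifts, Arntl, Clock, Npas2 and Cry1 were taken as the 4 morning-phase genes, and Per1, Per2, Per3, Nr1d1, Nr1d2 and Dbp as the 6 evening-phase genes.

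RNA-Seq was done on GFP+ cells sorted from mouse lungs on P6 (postnatal day 6). The 2 control libraries came from pups labelled Rosa-EGFP, Igf1r Flox/Wildtype, Gli1creER+, and the 3 Igf1r-deleted libraries from Rosa-EGFP, Igf1r Flox/Flox, Gli1creER+ pups. Pups of both groups received 100 µg of tamoxifen on P0 and on P1, so control cells could lose 1 copy of Igf1r, the receptor of insulin-like growth factor 1, and recombination was limited to Gli1-expressing cells and their descendants. The hour of harvest and the number of pups per library are not given in the sources used here, so the time of day of each library is unknown and differences in hour cannot be told apart from differences in genotype.

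Library totals ran from 35116766 to 37597857 counts. The smallest count of any clock gene in any library was 161, for Npas2. Counting error alone would give it a coefficient of variation of 7.88%. Counting error is therefore part of the spread of Npas2 between libraries, and it is smaller for genes with higher counts. Igf1r itself stood at 324 CPM (the count relative to the library total, which is scaled with TMM factors and set to the same size in every library) in both controls and at 140, 177 and 194 CPM after deletion, with a log2 fold change of -0.93 (SE 0.14; unadjusted p = 0.000301, adjusted p = 0.354, edgeR quasi-likelihood test). The libraries were labelled fibroblasts, and 12 fibroblast markers summed to 30510 to 42530 CPM, against 532 to 1176 CPM for 12 epithelial, 273 to 788 CPM for 10 endothelial and 217 to 593 CPM for 9 hematopoietic markers. The lowest sum of each of the last 3 lists was in Igf1r-deleted replicate 3. All 9 hematopoietic markers were lower in Igf1r-deleted cells (median log2 fold change -0.69, 2 with an unadjusted p under 0.05 in edgeR). Of the 12 epithelial markers 11 were lower (median -0.34, 1 at that p). Over all genes tested 47.7% were lower, and at that p 6.75% were called lower and 12.4% in either direction. Of the 12 fibroblast markers 8 were lower and 4 higher (median -0.15). At that p Acta2 (0.78), Tagln (0.59) and Fgf18 (0.95) were higher and Tcf21 (-0.57) lower. The part of such differences in the clock gene values was not tested. These are bulk libraries, so fewer cells of a type and less RNA per cell cannot be told apart. No label states that the libraries of a group came from separate litters or sorts, so p-values measure only the spread between these libraries, which may be technical.

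No gene of the 15298 passed an adjusted p of 0.05 in the edgeR test (0%), while 1897 genes (12.4%) had an unadjusted p under 0.05, and 199 of 12328 genes with an adjusted p in DESeq2 passed there (1.61%). Among the clock genes, 1 of 10 had an unadjusted p under 0.05 and was lower in Igf1r-deleted cells, where 6.75% of all genes were called lower by the same rule. That gene, Per2, was also the only one of the 10 that at that p changed by 0.5 or more on the log2 scale, as 6.26% of all genes did, and the only one past an adjusted p of 0.05 in DESeq2. The direction was even, with 5 clock genes higher and 5 lower, and the median log2 fold change was -0.020, beside 0.015 over all genes tested.

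**Figure D1:**
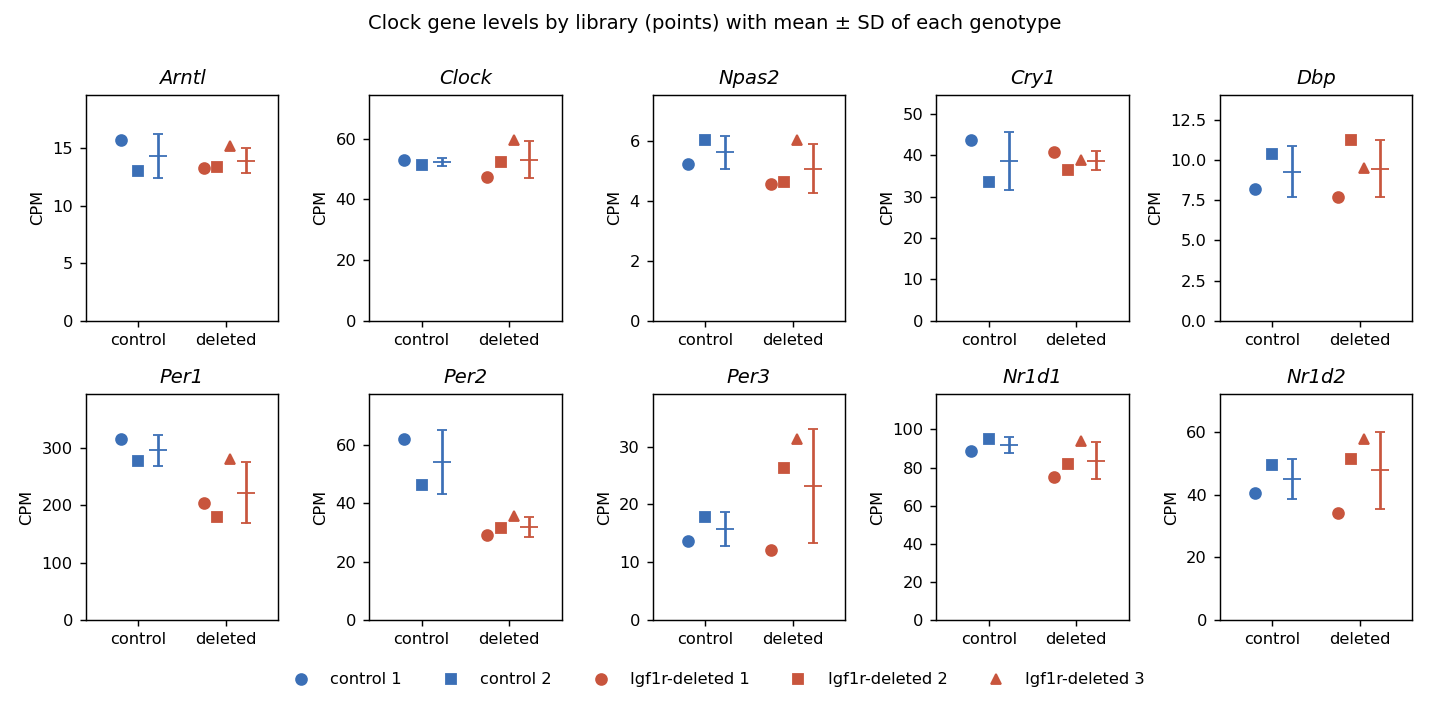
Level of each clock gene in CPM (y axis, linear and starting at 0) in the 2 control (blue) and 3 Igf1r-deleted (red) libraries. Points are libraries, and the bars beside them are the mean ± SD of the genotype. Per2 is the only gene whose Igf1r-deleted libraries, at 28.9 to 35.6 CPM, all lie below both controls, at 46.3 and 61.9 CPM.

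Compared per kilobase of exon, the clock genes differed in level over a wide range. Per1 stood highest at 44.7 ± 10.1 CPM per kb (SD, n = 5 libraries), followed by Nr1d1 at 28.3 ± 2.76, Cry1 at 11.6 ± 1.17, Nr1d2 at 8.62 ± 1.73 and Per2 at 6.97 ± 2.31 CPM per kb. Below them came Clock at 3.84 ± 0.320, Dbp at 3.14 ± 0.497, Per3 at 2.11 ± 0.859, Arntl at 1.88 ± 0.167 and Npas2 at 1.11 ± 0.149 CPM per kb. The ranges of the 5 libraries did not overlap between Per1 and Nr1d1, between Nr1d1 and Cry1, between Per2 and Clock, or between Arntl and Npas2, and the other neighbours in this order overlapped. By this measure the repressors Per1, Nr1d1, Cry1, Nr1d2 and Per2 were above every activator in all 5 libraries, whereas Per3 was not. Each length counts every exon base of any annotated transcript, 13.73 kb for Clock and 3.34 kb for Cry1, and the order depends on it. Without division by length, Clock at 47.4 to 59.5 CPM was above Cry1 at 33.7 to 43.7 CPM in every library.

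Short regulatory elements tie these genes into the loop, and the promoter sequences that hold one are shown here so that the genes can be read with their inputs. The BMAL1 pair binds the E-box (CACGTG) and the related E-prime box (CACGTT), DBP and its relatives bind the D-box (TTATGTAA), and the NR1D and ROR receptors bind elements with the core TAGGTCA or TGGGTCA. RefSeq promoters on GRCm38.p6, 250 bases before to 50 after the start site, were found for 9 of the 10 clock genes in 13 windows, and Per2 had no entry. On both strands, the E-box was in 7.15% of all 32851 promoters, the E-prime box in 4.68%, the D-box in 0.938% and the ROR core in 6.45%, and the cAMP response element TGACGTCA, in 1.79% of promoters, was in none of the 13. No match overlapped another. Capitals mark the match, and each stretch is printed 5′ to 3′ on the strand of its gene. Per1 held 1 E-box (chr11:69098753-69098818, plus strand), Cry1 an E-box and an E-prime box (chr10:85185079-85185163, minus strand), Nr1d1 an E-prime box read as AACGTG (chr11:98775378-98775435, minus strand), Per3 a pair of D-boxes (chr4:151044786-151044900, minus strand) and Arntl a ROR core (chr7:113207530-113207558, plus strand, in the first bases transcribed).
Per1: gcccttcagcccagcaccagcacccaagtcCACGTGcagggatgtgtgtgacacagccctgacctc
Cry1: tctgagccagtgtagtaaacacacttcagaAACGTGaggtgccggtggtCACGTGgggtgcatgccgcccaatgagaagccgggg
Nr1d1: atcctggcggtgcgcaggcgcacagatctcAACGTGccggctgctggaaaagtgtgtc
Per3: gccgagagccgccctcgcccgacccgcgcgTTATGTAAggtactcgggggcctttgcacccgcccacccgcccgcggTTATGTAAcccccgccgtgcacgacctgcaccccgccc
Arntl: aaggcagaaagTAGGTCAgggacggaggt
The windows of Clock, Npas2, Nr1d2 and Dbp held none of these letters. A match is a description of the sequence, not evidence of binding in these cells.

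The activators were nearly level between the genotypes. Arntl (chr7:113207465-113314126, mm10, plus strand) was measured at 15.7 and 13.0 CPM in the controls and at 13.3, 13.4 and 15.2 CPM after deletion. The Igf1r-deleted values lay between the controls, with a log2 fold change of -0.042 (SE 0.15, 95% confidence interval -0.386 to 0.302; adjusted p = 0.918, edgeR). Clock (chr5:76209868-76304792, minus strand), the usual partner of BMAL1, stood at 53.1 and 51.2 CPM in controls and at 47.4, 52.3 and 59.5 CPM after deletion. Its log2 fold change was 0.025 (SE 0.12, interval -0.255 to 0.304; adjusted p = 0.944, edgeR), with Igf1r-deleted libraries on both sides of the controls. Npas2 (chr1:39193731-39363236, plus strand), which can replace CLOCK, was the lowest activator at 5.24 and 6.03 against 4.56, 4.65 and 6.04 CPM. Its log2 fold change of -0.15 (SE 0.22, interval -0.657 to 0.359; adjusted p = 0.789, edgeR) came from Igf1r-deleted replicates 1 and 2, and replicate 3 matched the higher control.

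Cry1, a repressor that binds the BMAL1 pair directly, was the most even of the 10 between genotypes. Cry1 (chr10:85131700-85185064, minus strand) stood at 43.7 and 33.7 CPM in controls and at 40.9, 36.4 and 38.9 CPM in Igf1r-deleted libraries, all of them between the controls. The log2 fold change was 0.0012 (SE 0.13, interval -0.310 to 0.313; adjusted p = 0.999, edgeR). The intervals of Arntl, Clock and Cry1 together ran from -0.386 to 0.313, so changes of that size in either direction were within the error, and the interval of Npas2 was wider.

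Per2, whose protein carries the CRY repressors into the complex, showed the clearest difference of the set. Per2 (chr1:91415982-91459324, minus strand) stood at 61.9 and 46.3 CPM in the controls and at 28.9, 31.3 and 35.6 CPM after deletion. The groups did not overlap, and the highest Igf1r-deleted library lay below the lower control. Means were 54.1 ± 11.1 CPM (SD, n = 2) and 32.0 ± 3.41 CPM (SD, n = 3), and the log2 fold change was -0.76 (SE 0.15, interval -1.112 to -0.405; unadjusted p = 0.00135, adjusted p = 0.354, edgeR). Non-overlap below the controls was found in 14.9% of all genes, and an exact permutation test (two-sided) of the single gene gave p = 0.1, the smallest that 2 against 3 libraries allow. Per2 passed in DESeq2, with an adjusted p of 0.00619, and over 9 alternatives of the processing its adjusted p ran from 0.00619 to 0.365. Leaving out 1 library at a time kept the sign, from -0.96 to -0.54. The value nearest 0 came without control replicate 1, the library with the highest Per2.

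Per1 was the most abundant of the set and leaned the same way, with overlap. Per1 (chr11:69095217-69109960, plus strand) stood at 315 and 277 CPM in controls and at 204, 180 and 282 CPM after deletion. Igf1r-deleted replicates 1 and 2 were below both controls and replicate 3 was between them. The log2 fold change was -0.41 (SE 0.19, interval -0.858 to 0.028; unadjusted p = 0.0625, adjusted p = 0.413, edgeR). The unadjusted p was 0.0377 in DESeq2 and 0.00347 without Igf1r-deleted replicate 3, where the log2 fold change was -0.63. Without any other single library the unadjusted p stayed above 0.05, and the log2 fold change was nearest 0 without Igf1r-deleted replicate 2 (-0.29) and without control replicate 1 (-0.32). Adjusted p-values over 9 alternatives ran from 0.0642 to 0.429.

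Per3 did not move with the other Per genes. Per3 (chr4:151003652-151044665, minus strand) stood at 13.7 and 17.9 CPM in controls and at 12.1, 26.2 and 31.3 CPM in Igf1r-deleted libraries. Replicates 2 and 3 were above both controls, while replicate 1 was the lowest of the 5 libraries. The log2 fold change of 0.56 (SE 0.36, interval -0.300 to 1.41; adjusted p = 0.540, edgeR) therefore had the widest interval of the set. Without Igf1r-deleted replicate 1 it was 0.86 (unadjusted p = 0.00181, adjusted p = 0.092, edgeR), but it was 0.28 without Igf1r-deleted replicate 3, 0.37 without control replicate 1 and 0.20 with a replicate block, none with an unadjusted p under 0.05. The highest library was 2.59 times the lowest for Per3, 2.14 times for Per2 and 1.75 times for Per1, beside a median of 1.43 times over all genes tested and 1.28 times over the morning-phase genes.

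**Figure D2:**
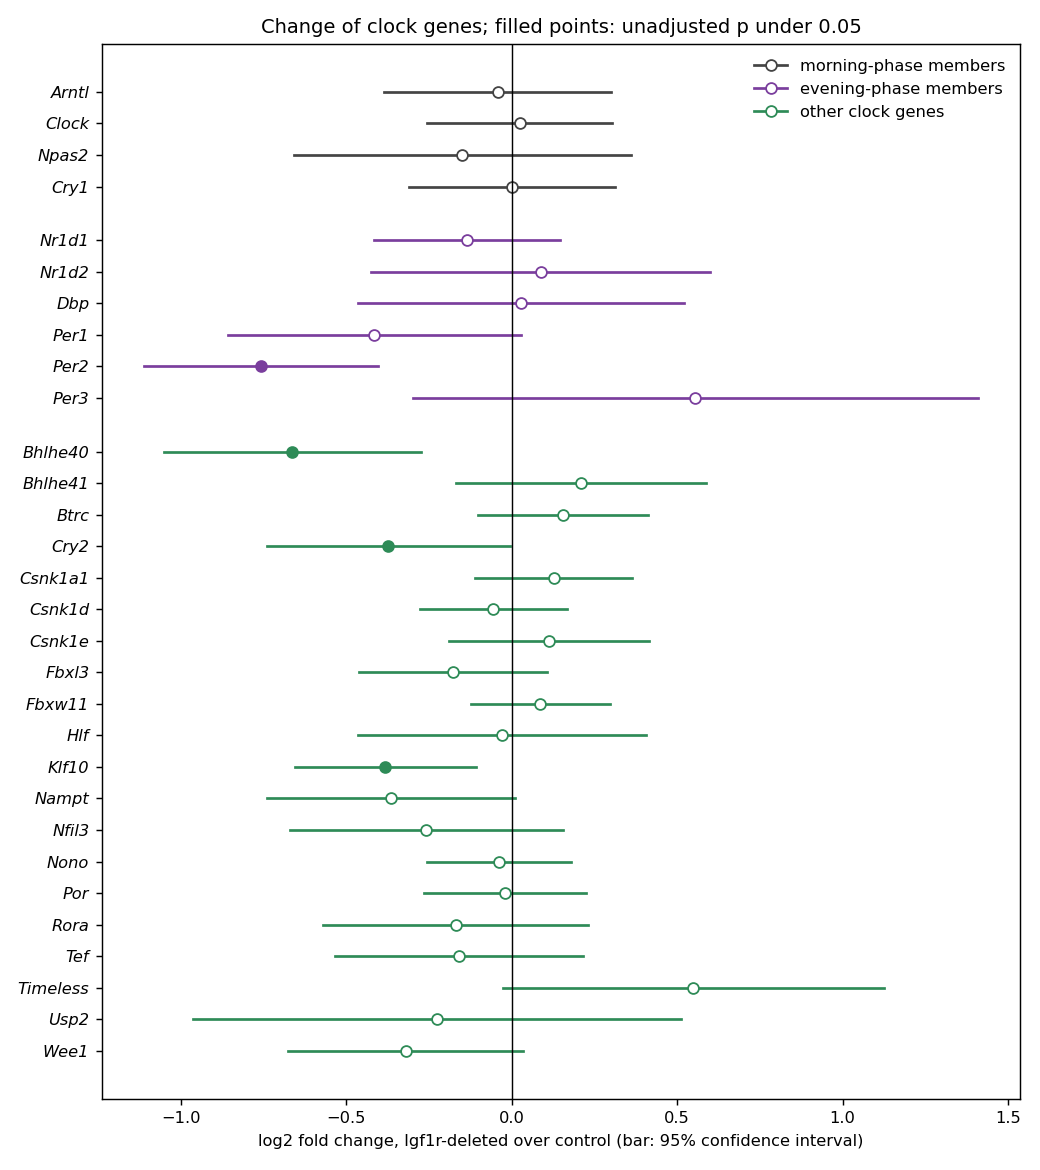
Log2 fold change of Igf1r-deleted over control cells (x axis) with its 95% confidence interval for the 4 morning-phase genes, the 6 evening-phase genes and the 20 of 25 other clock genes with a mean of at least 5 CPM in either genotype. Filled points have an unadjusted p under 0.05 in edgeR. The morning-phase genes sit near 0, whereas the Per genes range from -0.76 for Per2 to 0.56 for Per3.

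The nuclear receptors and Dbp, the usual indicators of the evening arm, did not differ beyond their spread. Nr1d1 (chr11:98767932-98775333, minus strand), which encodes REV-ERB alpha and represses Arntl, stood at 88.9 and 94.8 CPM in controls and at 75.0, 81.7 and 94.1 CPM after deletion. Igf1r-deleted replicate 3 lay between the controls and the other two below them, for a log2 fold change of -0.14 (SE 0.12, interval -0.416 to 0.145; adjusted p = 0.652, edgeR). Its exons overlap those of Thra on the opposite strand over 8.55% of their length, and since the use of strand in counting is not stated, reads there cannot be assigned. Thra had a log2 fold change of -0.20 (unadjusted p = 0.0682, edgeR).

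Nr1d2 (chr14:18204054-18239127, minus strand), which encodes the related REV-ERB beta, stood at 40.4 and 49.5 CPM in controls and at 34.1, 51.5 and 57.7 CPM after deletion. The Igf1r-deleted libraries spanned the controls on both sides, and the log2 fold change was 0.087 (SE 0.22, interval -0.425 to 0.600; adjusted p = 0.880, edgeR). Dbp (chr7:45705088-45710203, plus strand), a transcription factor that acts on D-boxes and usually has one of the steepest rhythms of the clock, was low at 8.18 and 10.4 CPM in controls and at 7.68, 11.2 and 9.49 CPM after deletion. Its log2 fold change was 0.028 (SE 0.21, interval -0.465 to 0.522; adjusted p = 0.964, edgeR). Exons of Dbp overlap those of Sphk2 on the opposite strand over 18% of their length, with Sphk2 at a log2 fold change of 0.11.

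The morning and evening arms did not move apart beyond the spread between libraries. Of the 4 morning-phase genes 2 were higher and 2 lower, with a median log2 fold change of -0.020, and of the 6 evening-phase genes 3 were higher and 3 lower, with a median of -0.054. Averaged within each library, the evening-phase genes had a mean log2 CPM of 5.48 and 5.57 in controls and of 5.07, 5.45 and 5.66 after deletion. The morning-phase genes had a mean log2 CPM of 4.39 and 4.27 against 4.22, 4.22 and 4.43. The evening mean was above the morning mean by 1.09 and 1.30 in controls and by 0.852, 1.23 and 1.23 after deletion, a change of -0.091 in the difference, smaller than its SD among controls (0.147) and among Igf1r-deleted libraries (0.218). The sign of this change rested on single libraries, since leaving out control replicate 2 gave 0.014 and leaving out Igf1r-deleted replicate 1 gave 0.035, and it reached -0.19 without control replicate 1, -0.16 without Igf1r-deleted replicate 2 and -0.15 without Igf1r-deleted replicate 3. It was -0.073 with Cry1 left out of the morning-phase genes and -0.14 with Nr1d1 and Nr1d2 left out of the evening-phase genes. Igf1r-deleted replicate 1 had the smallest difference, and the other two Igf1r-deleted libraries lay between the controls.

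Ratios within a library, which need no scaling between libraries, gave the same picture for the main pair and a different one for Per2. The log2 ratio of Nr1d1 to Arntl counts, genes that normally peak far apart in the day, was 2.50 and 2.87 in controls and 2.50, 2.61 and 2.63 after deletion, so that the Igf1r-deleted libraries lay within the range of the controls. The log2 ratio of Per2 to Arntl was 1.98 and 1.83 in controls and 1.13, 1.23 and 1.23 after deletion, with no overlap. A pair of ratios was added after the values had been seen. The log2 ratio of Per1 to Arntl was 4.33 and 4.41 against 3.94, 3.75 and 4.21, below both controls in every Igf1r-deleted library. Per1 in CPM overlapped between the groups, so this separation depends on the choice of Arntl as divisor. The log2 ratio of Per3 to Per2 was -2.18 and -1.37 against -1.26, -0.26 and -0.19, above both controls in every Igf1r-deleted library, although replicate 1 exceeded control replicate 2 only narrowly. Among single genes 14.9% separated below the controls and 16.0% above. How many other gene pairs separate was not counted, so the lack of overlap in these ratios is a description only. Since Arntl was nearly level, the Per2 ratio repeats the Per2 difference given above.

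**Figure D3:**
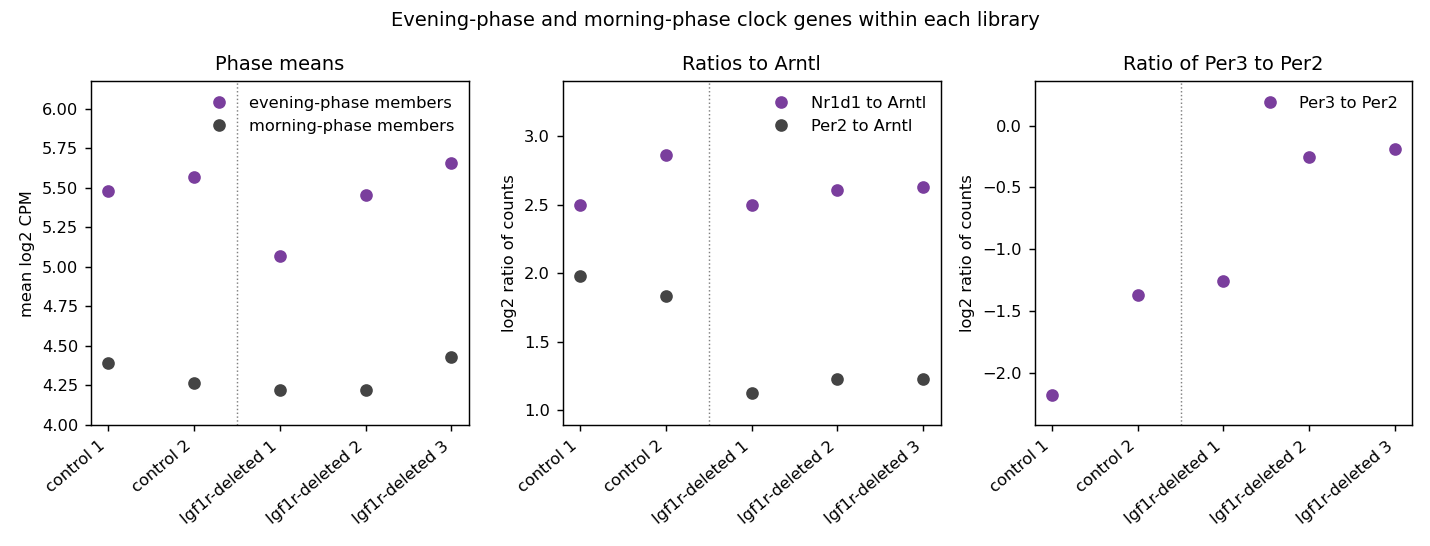
Mean log2 CPM of the evening-phase and morning-phase genes (left), log2 count ratios of Nr1d1 and of Per2 to Arntl (middle) and the log2 count ratio of Per3 to Per2 (right) in each of the 5 libraries (x axis, controls left of the dotted line). The Nr1d1 ratio of the Igf1r-deleted libraries stays within 2.50 to 2.63, inside the range of the controls, whereas the Per2 ratio is 1.83 or more in controls and 1.23 or less after deletion.

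The libraries also differed among themselves across the set. Igf1r-deleted replicate 1 was the lowest library for 7 of the 10 clock genes (Clock, Npas2, Per2, Per3, Nr1d1, Nr1d2 and Dbp), a place it took in 18.4% of all genes tested, and it was the highest for none. Igf1r-deleted replicate 3 was the highest library for 4 of the 10, and control replicate 1 for another 4, places they took in 23.5% and 26.4% of all genes. Within the Igf1r-deleted group, replicate 1 was lowest and replicate 3 highest for 7 of the 10, namely Arntl, Clock, Npas2, Per2, Per3, Nr1d1 and Nr1d2, which are genes of both phases. How many of all genes tested have this order was not counted, so the 7 of 10 is a description only.

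Of 25 further clock genes, all tested, 16 were lower and 9 higher in Igf1r-deleted cells, with a median log2 fold change of -0.056, and 3 had an unadjusted p under 0.05, all lower. That is 3 of 25, beside 12.4% of all genes called at this p in either direction and 6.75% called lower. So small a count does not set these genes apart from the rest, and their values are given as a description. Bhlhe40, which encodes the repressor DEC1, stood at 163 and 125 CPM in controls and at 108, 82.2 and 82.4 CPM after deletion. The groups did not overlap, with a log2 fold change of -0.66 (SE 0.17; unadjusted p = 0.00473, adjusted p = 0.354 in edgeR and 0.034 in DESeq2). Klf10, a clock-controlled zinc finger factor, stood at 79.7 and 69.5 CPM against 63.3, 53.8 and 54.8 CPM, again without overlap and with a log2 fold change of -0.38 (SE 0.12; unadjusted p = 0.0128, edgeR). Cry2, the partner repressor of Cry1, stood at 82.4 and 64.5 CPM against 49.5, 55.0 and 65.7 CPM, where Igf1r-deleted replicate 3 exceeded control replicate 2, and its log2 fold change was -0.37 (SE 0.16; unadjusted p = 0.0472, edgeR). Without control replicate 1, the highest library for all 3, only Bhlhe40 kept an unadjusted p under 0.05 in edgeR, with a log2 fold change of -0.46. Groups did not overlap for 2 of the 25 below the controls and for 5 above them, beside 14.9% and 16.0% of all genes.

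The remaining factors of the loop named here did not pass the test. Rora, the activator that competes with the REV-ERB receptors, had a log2 fold change of -0.17 (unadjusted p = 0.355, edgeR), and Tef, a relative of Dbp, stood at 163 and 151 CPM against 112, 148 and 162 CPM (-0.16). Nfil3, which opposes Dbp at D-boxes, stood at 215 and 146 CPM against 136, 149 and 170 CPM (-0.26). Its control libraries differed from each other by more than the genotypes did. Bhlhe41, which encodes DEC2, the relative of DEC1, lay slightly above both controls in all 3 Igf1r-deleted libraries, at 8.27, 8.75 and 9.63 against 7.95 and 7.42 CPM (0.21, unadjusted p = 0.233, edgeR), and 19% of its exon length overlaps an opposite-strand transcript. Ciart, a repressor of the BMAL1 pair listed as Gm129 and paired with Ciart in RefSeq, stood at 0.835 and 0.628 CPM against 0.708, 1.26 and 0.863 CPM, with a log2 fold change of 0.37 (SE 0.45).

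Per1 and Per2 are also induced by glucocorticoids and by immediate early signalling, so lists of such genes were read beside them. Both lists were written with earlier results of these data known, so their counts are a description and not a test. All 20 listed glucocorticoid-induced genes, Per1 among them, were lower in Igf1r-deleted cells, 16 with an unadjusted p under 0.05 and none with an adjusted p under 0.05 in edgeR (7 in DESeq2), and their median log2 fold change was -1.39. Over all genes tested 47.7% were lower, 6.75% were called lower at that unadjusted p, and 1.61% passed in DESeq2. Their summed level was 6315 and 3679 CPM in controls and 2790, 2043 and 2369 CPM after deletion, so the controls differed from each other by more than the lower control differed from the Igf1r-deleted libraries. Fkbp5, the standard reporter of glucocorticoid receptor activity, stood at 183 CPM in control replicate 1 and at 26.9 CPM in control replicate 2, against 27.5, 14.6 and 12.9 CPM after deletion. Without control replicate 1, 18 of the 20 were lower and the median was -0.57.

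All 22 immediate early genes were likewise lower, 11 with an unadjusted p under 0.05, where 6.75% of all genes were called lower. Dusp1 is in both lists. The median log2 fold change of the immediate early genes was -0.45, with summed levels of 30720 and 25170 CPM in controls against 20420, 19980 and 23270 CPM. Without control replicate 1, 19 of the 22 were lower and the median was -0.25. The order of the libraries in Per2 and Bhlhe40, with control replicate 1 highest and control replicate 2 next, was that of both summed levels for the controls. Within the Igf1r-deleted group Per2 was lowest in replicate 1, whereas Bhlhe40 and the glucocorticoid-induced sum were highest there. Per1, Per2 and the immediate early sum were highest in Igf1r-deleted replicate 3. Per2 without control replicate 1 had a log2 fold change of -0.54 (unadjusted p = 0.0108, edgeR). The part of these programs in the levels of Per1 and Per2 was not tested.

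**Figure D4:**
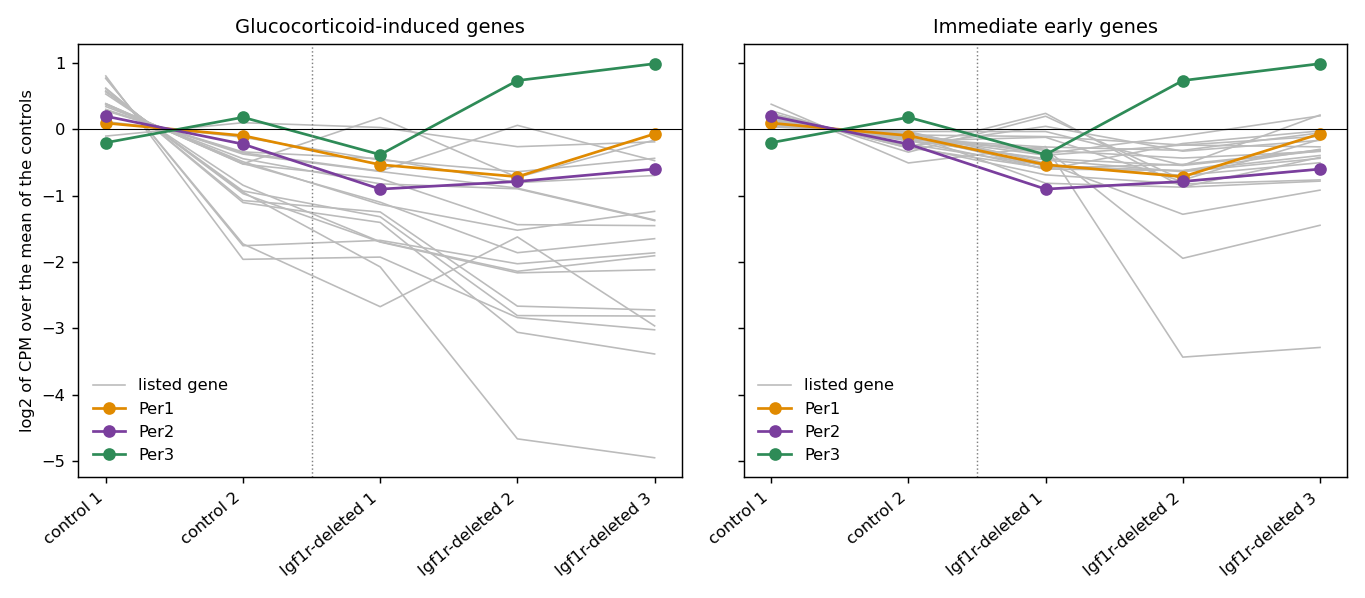
Log2 of CPM over the mean of the 2 controls (y axis) in each library (x axis) for Per1, Per2, Per3 (coloured) and for the listed glucocorticoid-induced (left, Per1 drawn only in colour) and immediate early genes (right, grey). A line links the values of one gene and implies no order of the libraries. Most grey lines are highest in control replicate 1, as are Per1 and Per2. In Igf1r-deleted replicate 3 Per1, at 282 CPM, lies above every grey line on the left. In Igf1r-deleted replicate 1 Per2, at 28.9 CPM, lies below every grey line on the right. Per3 is highest in Igf1r-deleted replicate 3, at 31.3 CPM, and next in replicate 2, at 26.2 CPM.

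The genes whose pattern over the 5 libraries was nearest to that of Arntl were looked for among 10840 genes with a mean of at least 5 CPM, by the root mean square distance of centred log2 CPM. They were Rnf103 (0.0052), Kctd9 (0.016) and Crot (0.016), and among the other clock genes Clock came 576th and Cry1 825th. For Nr1d1 the nearest were Ube2j2 (0.020), Sh3rf1 (0.021) and Mepce (0.028), with Npas2 77th, Clock 357th and Arntl 1786th. Over 5 libraries that share preparation and differ little in these genes, such distances describe a profile and no more. The other evening-phase receptor, Nr1d2, came 5928th for Nr1d1, and the morning-phase gene Cry1 6407th.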

How the data were processed

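The authors sorted GFP+ cells, prepared libraries with a NEBNext Ultra kit and sequenced paired reads of 150 bases. The submitters' processing notes name Trim Galore, Bowtie2, Cufflinks and DESeq, and build mm10. The deposited table holds raw read counts per gene symbol, 1 column per library, without normalization. Annotation, alignment settings and use of strand are not given in the sources used here.

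The two-sided quasi-likelihood test of edgeR 4.0.16 (R 4.3.3, with limma 3.58.1) was run on the genes kept by filterByExpr, with TMM factors and a model of genotype alone. P-values were adjusted by Benjamini-Hochberg over all 15298 genes tested. The fit was also run on simulated counts with the same dispersion for every gene, which checks the code but not the power at the spread of these libraries. Log2 CPM used a prior count of 2. Means per library and ratios are descriptions with no test. Alternatives were DESeq2 1.42.0, other scalings and filters, limma voom, robust empirical Bayes, a replicate block, leaving out each library and, for the phase means, a prior count of 0.5 and leaving out Cry1 or both Nr1d genes. Positions and exon lengths came from GENCODE M21.

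The clock genes and all gene lists, written from general knowledge, were chosen with earlier results of these data known. Named genes were all 10 clock genes, Igf1r, any further clock gene with an unadjusted p under 0.05, 7 further clock genes whatever their p, and the 3 genes nearest to Arntl and to Nr1d1. Counts of the glucocorticoid-induced and immediate early lists without each library were added after seeing the data.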

Additional observations from a re-analysis of the deposited data

How the results depend on the processing

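Per2 and Per1 were lower, Per3 higher, and Npas2 and Nr1d1 lower under every alternative run, whereas the signs of Arntl, Clock, Cry1, Nr1d2 and Dbp, all close to 0, depended on the setting. Arntl was 0.033 with library totals, and leaving out 1 library gave -0.18 to 0.095. Clock was -0.067 with a replicate block and -0.069 to 0.093 without 1 library, and Nr1d2 was -0.093 with the block and -0.074 to 0.27 without 1 library. Cry1 was -0.0093 with DESeq2 size factors and in DESeq2's Wald test, -0.0060 with at least 10 counts in every library, and -0.19 to 0.20 without 1 library, where Dbp ran from -0.14 to 0.20. Genes with an adjusted p under 0.05 were 0 in edgeR, 199 in DESeq2, 136 with the block and 0 to 45 without 1 library, and those with an unadjusted p under 0.05 were 1897, and 433 to 3183 without 1 library. Clock genes with an unadjusted p under 0.05 were 1, but 2 (Per1 and Per2) with the filter of at least 1 count, in DESeq2 and with the block, and 1 to 2 without 1 library, where Per3 joined without Igf1r-deleted replicate 1 and Per1 without Igf1r-deleted replicate 3. The further clock genes at that p were 3, but 5 with the looser filter and with the block, and 1 to 6 without 1 library. The block made Per2 pass an adjusted p of 0.05 (-0.83, adjusted p = 0.0412, edgeR) and changed no other call at that threshold among the clock genes. Replicate numbers are shared by 2 pairs only, whose deviations correlated at 0.21 and 0.12 across genes. The unmatched pair of control replicate 2 and Igf1r-deleted replicate 3 also correlated at 0.12. With 2 controls, the values of control replicate 1 are those of control replicate 2 with the sign turned. No label ties a number to a litter or batch, so the block is given for the record. Library totals moved the median of all genes to 0.088. With them the medians of the morning-phase and evening-phase genes were 0.053 and 0.023, and without 1 library they ran from -0.12 to 0.070 and from -0.16 to 0.052. With 2 libraries against 3, no exact permutation test can go below p = 0.1.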
